A study of Mus musculus with 6 samples.

Results

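Notch pathway genes were measured by RNA-seq in Melb-a cells, an immortal line of mouse melanoblasts (genotype given as C57BL/6J, from skin). The 10 members were 3 receptors (Notch1, Notch2, Notch3), 3 ligands (Jag1, Jag2, Dll1), the DNA-binding factor Rbpj and 3 transcriptional targets (Hes1, Hey1, Hey2). They were taken by symbol from the 35275 gene IDs of the count table, and all 10 were found. One set of 3 libraries came from cells given 10 µM iBRD9, a ligand of the BRD9 bromodomain; BRD9 belongs to the noncanonical SWI/SNF complex, which remodels chromatin. The other 3 libraries came from cells given the vehicle DMSO. Both sets were in DMEM with 10% serum, 2 nM NDP-alpha MSH, an analog of melanocyte stimulating hormone, and 200 nM of the phorbol ester PMA for 48 h. That medium drives the cells toward pigmentation, and every library, DMSO included, therefore comes from differentiating cells. A single compound at a single dose was used, so effects through BRD9 and other effects of the compound cannot be told apart.

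Notch receptors sit in the cell membrane and are activated by Jagged and Delta-like ligands on neighbouring cells. After ligand binding, an ADAM protease and then the gamma-secretase complex cut the receptor, and its intracellular part enters the nucleus, where it joins RBPJ and a Mastermind coactivator at target genes such as those of the HES and HEY repressors. In mice, loss of Notch1 and Notch2 or of Rbpj in the pigment lineage depletes melanoblasts and turns hair grey, and Hes1 has been linked to melanoblast survival.

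With iBRD9, transcripts of the 3 receptors and of the ligands Jag2 and Dll1 rose, and so did those of the target Hey1. Transcripts of the targets Hes1 and Hey2 fell, and Rbpj did not pass the test. Of the 9 members with enough reads to test, 6 were called higher and 2 lower, at an adjusted p under 0.05 in edgeR's quasi-likelihood test. Over all 13602 tested genes 60.7% were called, 29.8% higher and 30.9% lower, so that a call alone sets no gene apart in this comparison. The median log2 fold change of the 9 tested members was 1.31, against 0.01 over all tested genes. A call with at least a 2-fold change was made for 14.9% of tested genes and for 5 members, Notch1, Notch3, Jag2, Dll1 and Hey1. Jag2 and Hey1 had enough reads to test only through the iBRD9 libraries, where they were high, so their calls and fold changes depend on that. In 8 of the 9 the values of the iBRD9 and DMSO libraries did not overlap, as in 68.0% of all tested genes. Levels are per bulk RNA, where fewer cells with a transcript and less of it per cell cannot be told apart.

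**Figure D1:**
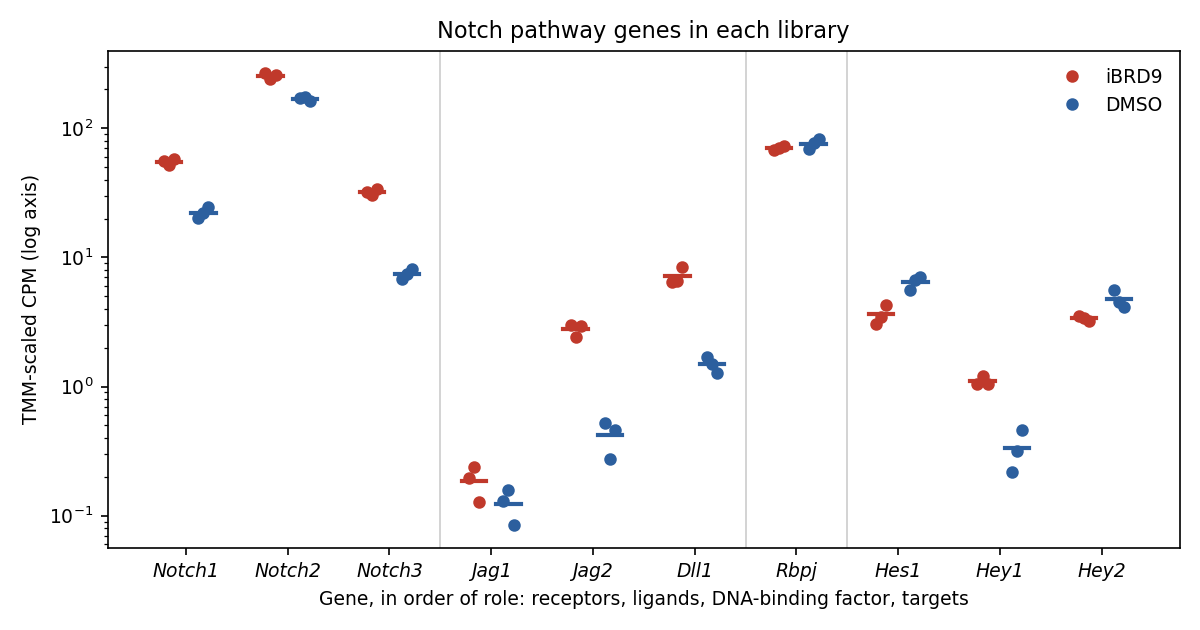
Level of each Notch pathway gene in each of the 6 libraries, as TMM-scaled CPM (read counts scaled to a common library size) on a log axis, with points for libraries and lines for the mean of 3. The iBRD9 points lie above the DMSO points without overlap for Notch1, Notch2, Notch3, Jag2, Dll1 and Hey1, and below them for Hes1 and Hey2.

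The library totals ran from 22846391 to 29680952 counts. DMSO replicate 1 was unlike its group, with a chi-square per degree of freedom of 29.2 and 37.5 against the other DMSO libraries, where DMSO replicates 2 and 3 gave 3.06 and the iBRD9 pairs 1.93 to 6.33. Leaving it out changed 1 call among the members, that of Rbpj, in a fit that called 74% of its tested genes, against 60.7% with all libraries. All 9 melanocyte markers examined passed the filter on low counts, and 5 were called lower, 1 higher and 3 not called. That is 66.7% called, near the 60.7% over all tested genes. Tyr (log2 fold change -2.61), Sox10 (-0.92), Pax3 (-0.68), Tyrp1 (-0.66) and Mlana (-0.62) fell and Dct rose (0.31), while Mitf, Kit and Pmel did not pass, with Mitf at 1206 CPM with iBRD9 and 1297 CPM with DMSO. The melanocyte markers thus moved in the same libraries as the Notch genes, and their part in those changes was not tested. The keratinocyte markers Krt5, Krt15, Krt1 and Lor and the immune markers Ptprc, Cd3e and Tyrobp were at 0 in every library.

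The promoter sequences of 4 members that moved are shown because Notch signals reach DNA through RBPJ, whose textbook recognition letters are GTGGGAA. They are RefSeq sequences of the build GRCm38.p6, which held 10 windows for 8 of the 10 members and none that matched Hes1 or Hey1. Dll1 and Rbpj each had windows at more than a single annotated start, and the Dll1 window at chr17:15376923-15377182 is not shown. Each line runs 5′ to 3′ on the strand of the gene, from 250 bases before to 10 bases after the annotated start, and capitals mark GTGGGAA or its reverse complement TTCCCAC.
Notch3, chr17:32166881-32167140, minus strand: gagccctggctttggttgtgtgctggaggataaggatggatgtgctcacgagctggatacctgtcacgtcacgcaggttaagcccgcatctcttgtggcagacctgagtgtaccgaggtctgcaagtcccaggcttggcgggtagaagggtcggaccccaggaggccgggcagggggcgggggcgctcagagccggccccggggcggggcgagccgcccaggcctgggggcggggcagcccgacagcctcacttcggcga
Jag2, chr12:112929486-112929745, minus strand: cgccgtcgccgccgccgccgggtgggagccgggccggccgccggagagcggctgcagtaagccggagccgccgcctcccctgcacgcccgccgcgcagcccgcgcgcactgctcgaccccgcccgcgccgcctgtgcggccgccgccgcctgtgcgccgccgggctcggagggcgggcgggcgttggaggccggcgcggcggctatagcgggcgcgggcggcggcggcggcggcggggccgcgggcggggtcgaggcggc
Dll1, chr17:15375814-15376073, minus strand: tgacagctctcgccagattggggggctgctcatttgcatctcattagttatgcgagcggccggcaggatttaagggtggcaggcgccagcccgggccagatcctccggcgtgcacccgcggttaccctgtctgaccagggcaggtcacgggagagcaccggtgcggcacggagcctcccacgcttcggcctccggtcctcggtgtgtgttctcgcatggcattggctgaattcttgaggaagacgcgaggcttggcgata
Hey2, chr10:30842774-30843033, minus strand: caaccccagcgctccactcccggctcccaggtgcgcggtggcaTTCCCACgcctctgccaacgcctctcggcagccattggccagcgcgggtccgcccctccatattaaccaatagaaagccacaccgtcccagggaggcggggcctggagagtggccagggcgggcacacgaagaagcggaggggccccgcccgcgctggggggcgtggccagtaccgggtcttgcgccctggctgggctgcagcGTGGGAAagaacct
Hey2 was the member whose window held these letters: in its 300-base window they occurred at 2 places, at -207 to -201 and across the start at -4 to 3. On both strands, 6.38% of all 32851 promoter windows of 300 bases held a match. The windows of Notch1, Notch2, Notch3, Jag1, Jag2, Dll1 and Rbpj held none, which says only that the letters are not within them. The shorter core TGGGAA, which lies inside the longer motif, was found in the Hey2 and Rbpj windows and in 25.6% of all windows. The members' windows were rich in G and C, from 55.7% for Jag1 to 86.0% for Jag2, with a median of 52.7% over all windows. They held 15 to 63 CG pairs, against a median of 7 over all windows.

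All 3 receptors rose, and by unequal amounts. Notch1 (ENSMUSG00000026923), the receptor whose human counterpart is mutated in T cell leukaemia, had 56.0, 51.8 and 57.8 CPM in the iBRD9 libraries, against 20.1, 22.1 and 24.4 CPM in the DMSO libraries. Every iBRD9 library was above every DMSO library. The means were 55.2 ± 3.05 CPM with iBRD9 and 22.2 ± 2.20 CPM with DMSO (SD, n = 3 each), a log2 fold change of 1.31 (SE 0.087, edgeR adjusted p = 1.33e-05), or 2.48-fold. Notch2 (ENSMUSG00000027878) had 266, 239 and 261 CPM with iBRD9, against 170.3, 174 and 164 CPM with DMSO. It was the receptor with the most reads in every library and the smallest relative rise, at a log2 fold change of 0.59 (SE 0.061, edgeR adjusted p = 9.99e-05), or 1.51-fold. Notch3 (ENSMUSG00000038146), best known from vascular smooth muscle and itself a target of Notch signalling, had 32.2, 30.3 and 33.8 CPM with iBRD9, against 6.86, 7.45 and 8.18 CPM with DMSO. Its log2 fold change of 2.10 (SE 0.095, edgeR adjusted p = 2.89e-06), or 4.28-fold, was the largest of the receptors.

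The receptors' proportions shifted with these unequal rises. Per kb of exon, Notch2 stood at 23.7 ± 1.35 CPM per kb with iBRD9 and 15.7 ± 0.498 with DMSO, Notch1 at 3.88 ± 0.214 with iBRD9 and 1.56 ± 0.154 with DMSO, and Notch3 at 3.97 ± 0.221 with iBRD9 and 0.927 ± 0.0817 with DMSO (SD, n = 3 each). Notch2 thus made up 75.1% ± 0.567 of the summed level per length of the 3 receptors with iBRD9 and 86.3% ± 1.41 with DMSO. The share of Notch3 was 12.6% ± 0.342 with iBRD9 and 5.10% ± 0.492 with DMSO, and that of Notch1 12.3% ± 0.226 with iBRD9 and 8.58% ± 0.917 with DMSO. None of these shares overlapped between the groups. Within each iBRD9 library Notch3 was slightly above Notch1 per length (3.99 against 3.94, 3.74 against 3.64 and 4.18 against 4.06 CPM per kb), with overlapping ranges over the 3 libraries. Within each DMSO library Notch1 was above Notch3, and the ranges did not overlap. These shares and orders rest on all annotated exons pooled, 14232 bases for Notch1 and 8089 for Notch3, not on the transcripts these cells use. By CPM, not divided by length, Notch1 was above Notch3 in every library.

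The ratio of 2 genes within a library does not depend on how libraries are scaled. The log2 ratio of Notch3 to Notch1 counts was -0.80, -0.78 and -0.77 in the iBRD9 libraries, against -1.55, -1.57 and -1.58 in the DMSO libraries. That of Notch3 to Notch2 averaged -2.99 ± 0.050 with iBRD9 and -4.50 ± 0.161 with DMSO, and that of Notch1 to Notch2 -2.21 ± 0.037 with iBRD9 and -2.94 ± 0.175 with DMSO (SD, n = 3 each). Each of these 3 ratios was separated between the groups, at a two-sided exact permutation p of 0.1, the smallest that 3 against 3 libraries can give (0.14 adjusted over the 7 ratios examined).

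**Figure D2:**
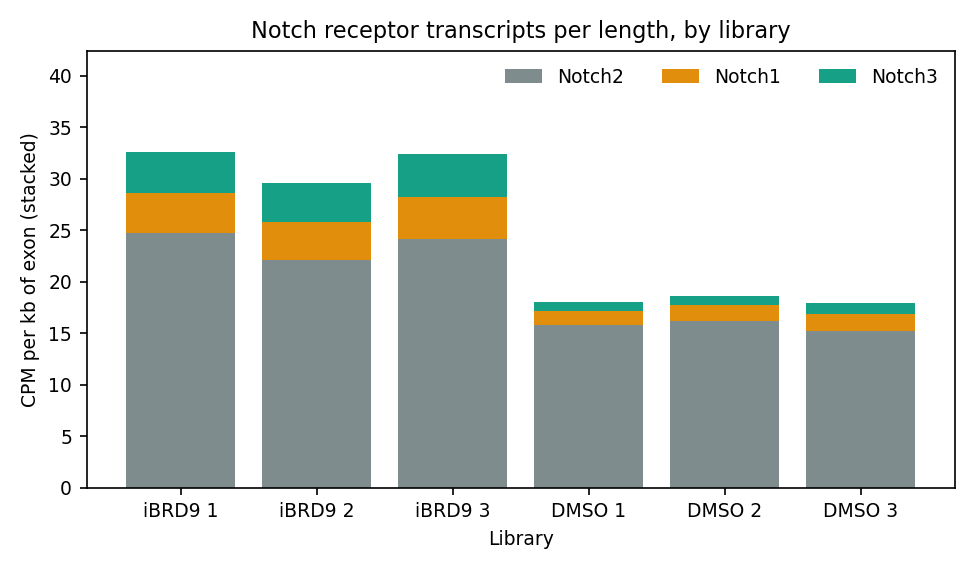
Stacked levels of Notch2, Notch1 and Notch3 in CPM per kb of exon, 1 bar per library. The Notch2 segment is the tallest in every library, and the Notch1 and Notch3 segments together are a larger part of the bar in the 3 iBRD9 libraries than in the 3 DMSO libraries.

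The ligands were far less abundant than the receptors, and those that could be tested had the largest fold changes of the tested members. Jag2 (ENSMUSG00000002799), a Jagged ligand, had 2.99, 2.40 and 2.96 CPM in the iBRD9 libraries, against 0.521, 0.276 and 0.464 CPM in the DMSO libraries. The DMSO values rest on 12, 7 and 11 reads, so the size of the rise is less precise than for the receptors: the log2 fold change was 2.73 (SE 0.264, edgeR adjusted p = 7.11e-05), or 6.61-fold. Jag2 passed the filter on low counts only through its iBRD9 libraries, so its rank among the members depends on the group where it was high. Dll1 (ENSMUSG00000014773), a Delta-like ligand, had 6.43, 6.56 and 8.49 CPM with iBRD9, against 1.69, 1.50 and 1.26 CPM with DMSO. It rose 4.80-fold (log2 fold change 2.26, SE 0.183, edgeR adjusted p = 3.08e-05), and the groups were well apart. Jag1 (ENSMUSG00000027276), the other Jagged ligand, was near the floor, with 6, 6 and 3 reads in the iBRD9 libraries, against 3, 4 and 2 reads in the DMSO libraries. It did not pass the filter and the groups overlapped. Fitted without a filter, Jag1 had an edgeR adjusted p of 0.527. Per kb of exon, Dll1 carried 79.6% ± 2.61 of the summed level of the 3 ligands with iBRD9 and 81.1% ± 2.79 with DMSO (SD, n = 3 each), and these shares overlapped. The log2 ratio of Jag2 to Dll1 counts also overlapped, at -1.36 ± 0.222 with iBRD9 and -1.86 ± 0.516 with DMSO (exact permutation p = 0.3, also 0.30 adjusted over the 7 ratios).

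Rbpj (ENSMUSG00000039191), the factor through which all 4 mammalian receptors reach DNA, was the second most abundant member per length and differed little. It had 67.7, 69.8 and 72.8 CPM in the iBRD9 libraries, against 69.1, 76.6 and 82.5 CPM in the DMSO libraries. The groups overlapped, and the log2 fold change was -0.12 (SE 0.077, edgeR adjusted p = 0.208). Without DMSO replicate 1, the lowest of the DMSO libraries for this gene, Rbpj was called lower, at a log2 fold change of -0.19 (edgeR adjusted p = 0.00161, with 0.00161 to 0.898 over its alternatives). That fit called 74% of the genes it tested, against 60.7% with all libraries. The pseudogenes Rbpj-ps1 and Rbpj-ps3 took 0 and 3 to 4 reads per library, so few reads of Rbpj were assigned to these 2 copies.

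The targets did not move together. Hes1 (ENSMUSG00000022528), a repressor that is a direct Notch target in many tissues, had 3.05, 3.48 and 4.31 CPM in the iBRD9 libraries, against 5.60, 6.66 and 7.04 CPM in the DMSO libraries. Every iBRD9 library was below every DMSO library, with a log2 fold change of -0.84 (SE 0.165, edgeR adjusted p = 0.00256). Hey2 (ENSMUSG00000019789), a related repressor known from heart and arteries, had 3.51, 3.40 and 3.21 CPM with iBRD9, against 5.60, 4.50 and 4.13 CPM with DMSO. It fell by 0.49 on the log2 scale (SE 0.156, edgeR adjusted p = 0.0249). That call was lost without any 1 of the iBRD9 libraries (-0.52, -0.50 and -0.46 without replicates 1, 2 and 3) and with library size alone (-0.38), with adjusted p from 0.0187 to 0.0811 over its alternatives. Hey1 (ENSMUSG00000040289), the third repressor, had 1.04, 1.20 and 1.06 CPM with iBRD9, against 0.217, 0.316 and 0.464 CPM with DMSO. Those values rest on 32, 30 and 25 reads with iBRD9 and on 5, 8 and 11 reads with DMSO. Like Jag2, Hey1 passed the filter only through its iBRD9 libraries, where it was high. Hey1 rose 3.26-fold (log2 fold change 1.71, SE 0.313, edgeR adjusted p = 0.00181) without overlap between the groups.

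Hey1 and Hes1 thus moved in opposite directions in the same libraries. The log2 ratio of Hey1 to Hes1 counts was -1.55, -1.54 and -2.03 in the iBRD9 libraries, against -4.69, -4.40 and -3.92 in the DMSO libraries. The difference of 2.63 separated the groups (exact permutation p = 0.1, the smallest possible; 0.14 adjusted over the 7 ratios). The log2 ratio of Hey1 to Hey2 was higher with iBRD9 by 2.27 (exact permutation p = 0.1, adjusted 0.14), while that of Hey2 to Hes1 overlapped between the groups (-0.09 ± 0.316 with iBRD9 and -0.45 ± 0.399 with DMSO; exact permutation p = 0.3, adjusted 0.30). Per kb of exon, Hes1 remained the most abundant of the 3 in every library, with 62.1% ± 4.82 of their summed level with iBRD9 and 73.4% ± 4.64 with DMSO, while Hey1 had 11.9% ± 1.42 with iBRD9 and 2.34% ± 0.762 with DMSO (SD, n = 3 each).

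**Figure D3:**
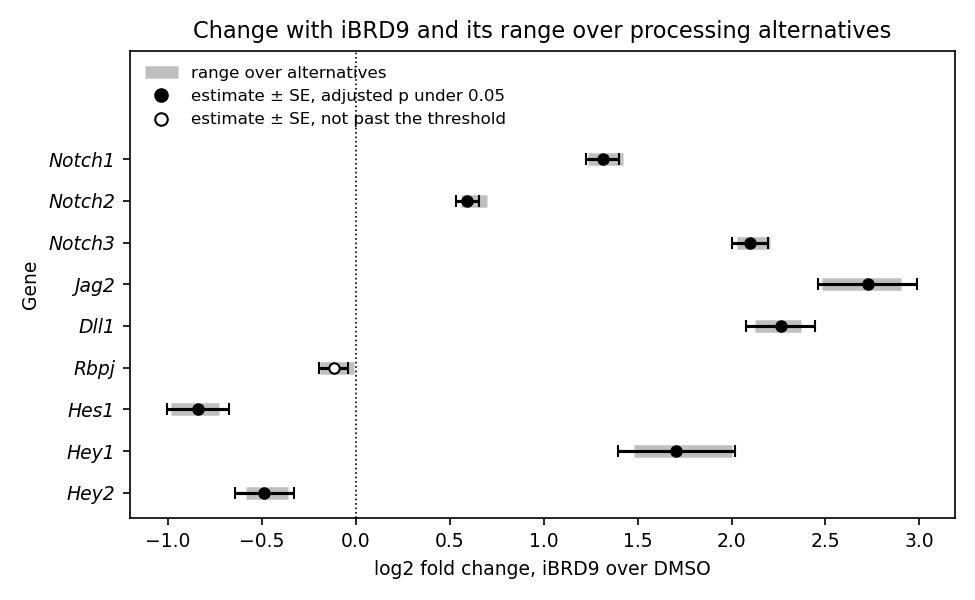
Log2 fold change of the 9 tested members, iBRD9 over DMSO, as the estimate ± its standard error, with the range over the processing alternatives as a grey bar. The grey bars of Notch1, Notch2, Notch3, Jag2, Dll1 and Hey1 lie to the right of 0 and those of Hes1 and Hey2 to its left, and Rbpj ranges from -0.19 to -0.01.

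Ordered by level per kb of exon, the members ran in the iBRD9 libraries from Notch2 (23.7 CPM per kb) through Rbpj (5.50), Notch3 (3.97), Notch1 (3.88), Hes1 (1.77), Dll1 (1.70), Hey2 (0.734), Jag2 (0.399) and Hey1 (0.336) to Jag1 (0.0321). Notch3 and Notch1, Hes1 and Dll1, and Jag2 and Hey1 overlapped between neighbours. In the DMSO libraries the order was Notch2 (15.7 CPM per kb), Rbpj (5.96), Hes1 (3.16), Notch1 (1.56), Hey2 (1.03), Notch3 (0.927), Dll1 (0.352), Hey1 (0.102), Jag2 (0.0603) and Jag1 (0.0213). There Hey2 and Notch3 overlapped, as did Hey1 and Jag2, and Jag1 lay below Jag2 in every library. Lengths are those of the union of exons in GENCODE M21, so they do not follow the transcript forms these cells use.

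The remaining genes of the pathway moved in both directions. Of 80 further genes in 7 lists by role, 68 were tested, of which 22 were called higher and 23 lower (66.2% called, against the 60.7% over all tested genes), with a median log2 fold change of 0.06. Among other receptors and ligands, 2 of 5 tested genes rose and 1 fell (60.0% called, median 0.08). Notch4, the receptor known from endothelium, rose at a low level, to 2.86, 2.80 and 2.66 CPM with iBRD9, against 1.95, 1.54 and 1.43 CPM with DMSO (log2 fold change 0.76, SE 0.184, edgeR adjusted p = 0.00726). The other 2 called genes of that list, named after their values were seen, were near the floor: Mfap2 (log2 fold change 1.87) rose and Dlk2 (-2.17) fell. Each passed the filter only through the group where it was higher. Dll4, the endothelial Delta-like ligand, had 9, 6 and 5 reads with iBRD9, against 1, 1 and 0 reads with DMSO, and did not pass the filter. Fitted without a filter, Dll4 was called higher (edgeR adjusted p = 0.0106).

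Among genes that modify or mature the receptor, 3 of 6 tested genes rose and 1 fell (median 0.46). The share called was 66.7%, against 60.7% over all tested genes. Pofut1, which adds O-fucose to the receptor, had 81.4 ± 3.16 CPM with iBRD9 and 54.6 ± 1.45 CPM with DMSO (log2 fold change 0.58). Eogt, which adds O-linked N-acetylglucosamine, had 239 ± 22.7 CPM with iBRD9 and 118 ± 14.4 CPM with DMSO (1.01). Poglut1, which adds O-glucose, fell, with 44.2 ± 2.27 CPM with iBRD9 and 66.1 ± 5.44 CPM with DMSO (-0.58; SD, n = 3 each). The Fringe genes, whose enzymes extend O-fucose, gave no call: Rfng had 27.9 ± 0.664 CPM with iBRD9 and 27.8 ± 1.80 CPM with DMSO, and Mfng and Lfng were below 1 CPM.

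Of the 9 genes of the proteases that cut the receptor, 3 rose and 5 fell (median -0.51). That is 88.9% called, against 60.7% over all tested genes. The ADAM genes rose slightly, Adam17 to 104 ± 3.82 CPM with iBRD9, against 87.8 ± 3.32 CPM with DMSO (log2 fold change 0.24, edgeR adjusted p = 0.00791), and Adam10, named after its values were seen, by 0.21 on the log2 scale (adjusted p = 0.0199). The call of Adam10 was lost without each library in turn (0.17 to 0.23), except without DMSO replicate 1. In gamma-secretase, the catalytic presenilin Psen2 fell, with 100.1, 88.7 and 89.4 CPM with iBRD9, against 168, 171 and 158 CPM with DMSO (-0.83, SE 0.067, edgeR adjusted p = 3.06e-05). The subunit genes Ncstn (-0.51), Aph1a (-0.57) and Psenen (-0.73), named after their values were seen, also fell. Aph1c fell (-0.82) and its near copy Aph1b rose (0.92), and their counts are uncertain wherever reads were shared between the 2 genes.

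Among coactivators, 1 of 8 tested genes rose and 3 fell (median -0.13). With 4 of 8 called, the share called was below the 60.7% over all tested genes. The Mastermind genes Maml1 and Maml2, whose proteins complete the complex with RBPJ, fell. Maml1 had 38.4, 32.3 and 38.2 CPM with iBRD9, against 56.2, 63.6 and 67.3 CPM with DMSO (-0.78, SE 0.095, edgeR adjusted p = 0.000227), and Maml2 had 7.40 ± 0.937 CPM with iBRD9 and 11.4 ± 0.313 CPM with DMSO (-0.62). Maml3 did not pass (0.05, adjusted p = 0.689), and the histone acetyltransferase gene Crebbp rose (0.40).

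Of 16 corepressor genes, 6 rose and 4 fell (median 0.12), and 10 rose with library size alone. The share called was 62.5%, near the 60.7% over all tested genes. The Groucho-related genes, whose proteins act with HES repressors, split. Tle2 had 7.47, 7.08 and 7.22 CPM with iBRD9, against 1.78, 1.97 and 2.19 CPM with DMSO (log2 fold change 1.87, SE 0.136, edgeR adjusted p = 1.89e-05), and Tle1 rose as well (0.82). Tle3 fell (-0.56), as did L3mbtl3 (-0.67), whose protein binds RBPJ.

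Among genes of ligand and receptor endocytosis and turnover, 7 of 16 tested genes rose and 4 fell (median 0.12). The share called was 68.8%, against 60.7% over all tested genes. Dtx1, a Deltex ubiquitin ligase that is also a Notch target, had the largest fold change of the 68 genes, with 1.49, 1.72 and 2.70 CPM with iBRD9, against 0.260, 0.276 and 0.0843 CPM with DMSO (log2 fold change 3.20, SE 0.422, edgeR adjusted p = 0.000344). The DMSO values rest on 6, 7 and 2 reads. Dtx1 passed the filter only through its iBRD9 libraries, so its rank depends on the group where it was high. The ubiquitin ligase genes that act on ligands parted: Neurl1b rose, with 67.6 ± 2.66 CPM with iBRD9 and 29.7 ± 4.24 CPM with DMSO (1.19), and Mib2 fell, with 40.7 ± 3.09 CPM with iBRD9 and 90.4 ± 19.0 CPM with DMSO (-1.15; SD, n = 3 each). Dtx3l fell too (-1.13). Mib1, another ligase gene that acts on ligands, named after its values were seen, rose (0.40). It had 216 ± 3.30 CPM with iBRD9 and 164 ± 21.7 CPM with DMSO. Neurl1a, near the floor, gave no call.

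Of 8 tested genes in the list of further targets, 5 fell and none rose (0), with a median of -0.64. That is 62.5% called, against 60.7% over all tested genes, of which 30.9% were called lower. These genes answer to many other signals as well. Notch3 and Dtx1, also Notch targets but placed in other lists, rose, and Dtx1 was tested only through its iBRD9 libraries, where it was high. Cdkn1a, the cell cycle inhibitor p21, had 15.7 ± 0.727 CPM with iBRD9 and 38.2 ± 9.63 CPM with DMSO (-1.28), and Id3, an inhibitor of basic helix-loop-helix factors, had 25.9 ± 6.47 CPM with iBRD9 and 56.2 ± 17.2 CPM with DMSO (-1.13). The other 3 of the list that fell, named after their values were seen, were Myc (-0.99), Snai2 (-0.98) and Hes6 (-0.29). Hes6 is a gene of the HES family, and whether Notch induces it in these cells was not tested. Id3 lost its call without a filter (adjusted p = 0.0665), and Hes6 lost it with library size alone (0.0766) and without iBRD9 replicate 1 (0.0520), which left 4 called lower in each case. Heyl was at 0 reads in every library. Nrarp, a feedback inhibitor that Notch induces, had 0 reads in every iBRD9 library and 2, 1 and 1 reads in the DMSO libraries, below what these depths can compare. Hes2, another gene of the HES family that was too low for the filter, had 11, 16 and 17 reads with iBRD9, against 0, 1 and 1 reads with DMSO. It was called higher in each of the 5 alternatives that kept it, with an edgeR adjusted p of 9.64e-05 without a filter. Apart from the fit without a filter, they kept Hes2 only through its iBRD9 libraries. The cyclin gene Ccnd1 did not pass (-0.01, adjusted p = 0.968), but was called higher without DMSO replicate 1 (0.22, adjusted p = 0.0115), where 74% of tested genes were called.

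**Figure D4:**
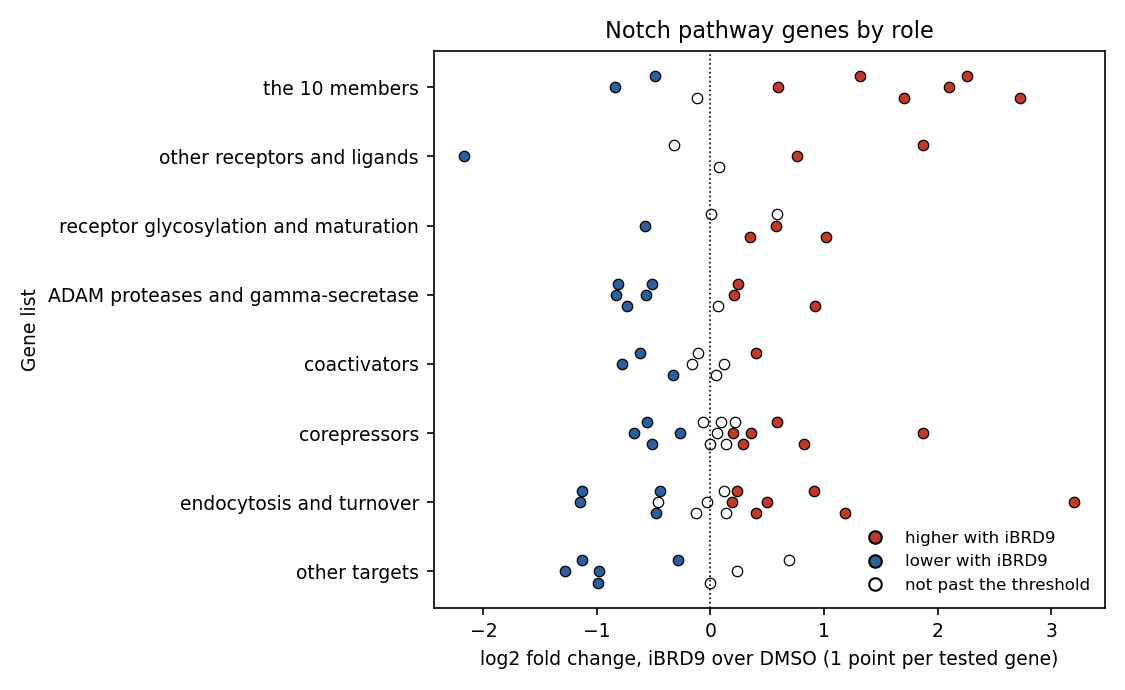
Log2 fold change, iBRD9 over DMSO, of each tested gene of the Notch pathway, 1 point per gene and 1 line per role, filled by whether and in which direction it was called. Called genes lie on both sides of 0 in the list of 10 members and in every other list but that of other targets, where all 5 called genes lie below 0.

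Markers of cell types in which Notch genes are also active were read beside these values. The 8 endothelial markers summed to 4.55 to 6.25 CPM in the iBRD9 libraries and to 1.54 to 1.65 CPM in the DMSO libraries. Most of that sum was Kdr (3.98 ± 1.01 CPM with iBRD9 and 0.941 ± 0.157 CPM with DMSO), the 1 of the 8 that was tested, while Tie1, Cldn5 and Erg were below 0.03 CPM in both groups. The 8 fibroblast markers summed to 462 to 506 CPM with iBRD9 and to 503 to 592 CPM with DMSO, most of it Fbln1, with 2 higher, 2 lower and 2 without a call among 6 tested. The 8 keratinocyte markers summed to 3.64 to 4.35 CPM with iBRD9 and to 3.50 to 4.21 CPM with DMSO, nearly all Krt10, and the 8 immune markers to 5.53 to 6.46 CPM with iBRD9 and to 6.12 to 7.81 CPM with DMSO, mostly Cd68. The 2 immune markers that were tested parted: Cd68 fell (-0.69) and Csf1r rose, with 1.71 CPM with iBRD9 and 0.279 CPM with DMSO (2.60, edgeR adjusted p = 0.000392). Csf1r passed the filter only through its iBRD9 libraries. The 8 Schwann cell markers summed to 55.5 to 59.2 CPM with iBRD9 and to 239 to 330 CPM with DMSO, with all 4 tested markers lower. Over all tested genes, 29.8% were called higher and 30.9% lower. The part of these markers in the changes of the Notch genes was not tested.

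For the members called at 2-fold or more, the genes with the most similar profile over the 6 libraries were sought among genes with a mean of at least 5 CPM, by the root mean square distance of centred log2 CPM. The nearest to Notch1 was Cd320 (distance 0.081), to Notch3 Fat4 (0.075), to Dll1 Rasa4 (0.111), to Jag2 Micall2 (0.191) and to Hey1 Hcn2 (0.171). Dis3 was among the 3 nearest to both Notch3 (0.095) and Dll1 (0.159). With 6 libraries in 2 groups, such likeness describes mostly the size of the treatment difference.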

How the data were processed

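Total RNA of 6 Melb-a samples was poly(A)-selected, per the labels' protocols, and made into libraries with a kit not described as marking strand. The authors deposited whole-number counts of reads for each Ensembl gene. The submitters' processing notes name CASAVA 1.8.2, Bowtie2 2.4.5 and GRCm39, while the counting program and annotation release were not given in the sources. Reads of the antisense genes that overlap exons of Notch1, Notch3 and Dll1 cannot be told apart from theirs, and those genes held at most 19 reads in a library. Columns were assigned to samples by treatment and replicate number. Of the 35275 IDs, 34490 matched a symbol.

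Genes were kept by filterByExpr (minimum count 10), scaled by TMM and tested with edgeR 4.0.16 (R 4.3.3), quasi-likelihood F-test with robust dispersion, treatment as the sole term, two-sided, Benjamini-Hochberg adjustment over all 13602 tested genes, called under 0.05. The standard error is the log2 fold change divided by the square root of F. The procedure was tested on simulated data in which only a small part of the genes changed. Most tested genes were called in the real comparison, so that test does not give its error rates here. Levels are TMM-scaled CPM computed from the counts. Nothing says whether the 3 samples per group are separate cultures beyond their being called independent, so p-values measure the spread between these samples. Alternatives were DESeq2 1.42.0 and its size factors, library size alone, limma-voom (limma 3.58.1), other filters, a replicate block, a threshold of 0.01, and omission of each library.

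The members and lists were chosen with earlier results of these data known. All members are named, and from each other list up to 2 higher and 2 lower called genes of largest change with a mean of at least 1 CPM. Some genes of the lists are not reported here. Promoters came from RefSeq (GRCm38.p6) and exon lengths from GENCODE M21, of the same older build, so no coordinates of the counted genes are given. Figures were drawn with matplotlib 3.10.9.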

Additional observations from a re-analysis of the deposited data

How the results depend on the processing

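Of the 9 tested members, Notch1, Notch2, Notch3, Jag2, Dll1, Hes1 and Hey1 kept their direction and their call in all 14 alternatives, with log2 fold changes from 1.24 to 1.42 for Notch1, 0.56 to 0.70 for Notch2, 2.03 to 2.20 for Notch3, 2.48 to 2.90 for Jag2, 2.12 to 2.37 for Dll1, -0.98 to -0.73 for Hes1 and 1.48 to 2.00 for Hey1. The call of Hey2 was lost with library size alone, at an adjusted p under 0.01 and without each iBRD9 library, which left 1 member called lower; over the fits that left out 1 library that count ran from 1 to 3, the third being Rbpj. Library size alone moved the median log2 fold change of all genes to 0.11, and called 10 corepressors and 2 coactivators higher. With at least 1 CPM in 3 libraries, 1 of the other receptors and ligands was called higher and 0 lower, since fewer genes were tested, and 0 were lower at an adjusted p under 0.01. Among other targets, where 0 were called higher, 2 were without a filter (Hes2 and Hes3), and 0 to 2 without 1 library. Ccnd1, at -0.01 with all libraries, reversed without DMSO replicate 1 (0.22), and ran from -0.13 to 0.22 over the fits without 1 library. The deviations of samples that share a replicate number were weakly correlated (r = 0.118, 0.060 and 0.025 for numbers 1, 2 and 3). The labels state no pairing, and values this weak cannot decide whether the numbers pair the samples. The fit with the replicate block called 7937 genes, against 8262 without, and changed no member's call; Fbxw7 lost its call there (adjusted p = 0.0551). Not every sample correlated best with its own number. Jag1, Hes2 and Dll4 are limited by depth. Over all genes tested in the fits without 1 library, the count of calls ran from 6865 to 10311. The highest count came without DMSO replicate 1, where 74% of 13933 tested genes were called.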
